A study of Mus musculus with 11 samples.

Results

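Polyunsaturated fatty acid synthesis and transport was followed through 10 genes, taken by name from the 25311 genes of the count table. They were the desaturases Fads1 and Fads2, the elongases Elovl2, Elovl4 and Elovl5, the acyl-CoA synthetase Acsl6, the transporter Mfsd2a and the fatty acid-binding proteins Fabp5, Fabp7 and Fabp12. All 10 were found in the table, and each was read in every retinal cell class and condition.

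Cells make long-chain polyunsaturated fatty acids (LCPUFA) from shorter dietary precursors by alternating desaturation and elongation. FADS2 and FADS1 add double bonds, ELOVL5 and ELOVL2 lengthen the chain, and ELOVL4 makes the very long chains found in photoreceptor outer segments, whose membranes are known for their high content of docosahexaenoic acid (DHA). ACSL6 couples fatty acids, DHA among them, to coenzyme A, MFSD2A carries DHA as a lysophospholipid across the endothelium of the blood-retina barrier, and the binding proteins carry fatty acids inside the cell.

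Single-cell suspensions of C57BL/6J mouse retina were prepared with papain at postnatal day 10 and captured by inDrop, in which unique molecular identifiers (UMIs) let each captured RNA molecule be counted once. Control mice received PBS (n = 3). Phase I retinopathy of prematurity (ROP), a model of hyperglycemia-associated retinopathy, was induced with streptozotocin (STZ) in their littermates (n = 3). Another set of STZ-treated littermates was divided between nursing dams on a ω-3 LCPUFA diet (n = 2), with DHA and eicosapentaenoic acid and no arachidonic acid, and dams on a ω-6 LCPUFA diet (n = 3), with arachidonic acid and neither of the others. Diet and dam therefore cannot be told apart, and all diet-fed mice carried STZ. STZ, known to act on pancreatic beta cells, was injected intraperitoneally. Whether it also acted on retinal cells directly was not tested here.

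The 20033 cells kept (787 to 2618 per mouse, 2563064 to 6516478 UMIs per mouse) fell into 25 clusters. The classes with at least 10 cells in every mouse were rods (10178 cells), bipolar cells (3596), amacrine cells (3287), Müller glia (1425) and cones (1126). The 10 genes leading a cluster included no marker of its class in 6 of the 10 rod clusters (2449 cells) and in 1 of the 5 amacrine clusters (1356 cells). Before any result, the control libraries stood apart from the rest. Rn7sk, a small nuclear RNA without a poly(A) tail, lay at 193 to 290 CPM in them (counts per 1000000 UMIs of a mouse) and at 1.15 to 16.2 CPM in the other 8 mice. Fosb, an immediate-early gene, lay below 1 CPM in the control mice and at 116 to 231 CPM elsewhere. Rods made up 28.1% to 35.8% of control cells and 47.5% to 55.4% of STZ cells. STZ treatment and library preparation cannot be told apart in any difference from control. Every pair of libraries shared some barcode sequences, at most 52 in a pair.

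In GENCODE M21 of GRCm38, all 10 are protein-coding genes. Fads1 (chr19:10182888-10196877, plus strand) and Fads2 (chr19:10062765-10101746, minus strand) lie 81.1 kb apart, and Fabp5 (chr3:10012548-10016607, plus strand) and Fabp12 (chr3:10244209-10301183, minus strand) lie 228 kb apart. Elovl4 (chr9:83778692-83806277, minus strand) and Elovl5 (chr9:77917364-77984519, plus strand) are on the same chromosome. Elovl2 is at chr13:41182381-41220405 on the minus strand, Acsl6 at chr11:54303798-54364756 on the plus strand, Mfsd2a at chr4:122946850-122961188 on the minus strand and Fabp7 at chr10:57784881-57788450 on the plus strand. The antisense gene Gm12224 lies within Acsl6. The table also holds a Fabp5-like gene, Fabp5l2, so reads of Fabp5 could be shared with a close copy.

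RefSeq (GRCm38.p6) gave a promoter for 7 of the 10 genes, at 10 start sites, 2 of them in Elovl2. An elongase promoter each is shown because the elongases differ in where they are expressed, Elovl2 and Elovl4 in photoreceptors and Elovl5 in Müller glia. Each sequence is the 250 bases before the start, 5′ to 3′. Capitals mark GC boxes, spelled GGGCGG on either strand. They also mark the box named after its letters CCAAT, on either strand, and the E-box with the letters CACGTG.
Elovl2, chr13:41220404-41220653, minus strand: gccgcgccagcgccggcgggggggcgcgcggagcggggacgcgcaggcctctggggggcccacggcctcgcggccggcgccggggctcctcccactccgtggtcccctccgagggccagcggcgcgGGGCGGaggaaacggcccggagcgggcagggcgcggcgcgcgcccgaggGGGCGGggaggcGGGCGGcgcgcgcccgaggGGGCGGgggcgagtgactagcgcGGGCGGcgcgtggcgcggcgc
Elovl4, chr9:83806306-83806555, minus strand: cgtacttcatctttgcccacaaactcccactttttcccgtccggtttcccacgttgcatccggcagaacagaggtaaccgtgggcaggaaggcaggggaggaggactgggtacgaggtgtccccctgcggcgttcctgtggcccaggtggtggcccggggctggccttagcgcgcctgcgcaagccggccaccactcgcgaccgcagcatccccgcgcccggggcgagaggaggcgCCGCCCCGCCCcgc
Elovl5, chr9:77917115-77917364, plus strand: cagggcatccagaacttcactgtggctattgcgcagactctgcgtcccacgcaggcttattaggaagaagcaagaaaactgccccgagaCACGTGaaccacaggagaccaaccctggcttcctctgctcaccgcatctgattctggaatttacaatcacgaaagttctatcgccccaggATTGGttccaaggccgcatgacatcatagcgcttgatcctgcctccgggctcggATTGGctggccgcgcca
The Elovl2 window shown was 87.2% G or C with 5 GC boxes, whereas that of its other start site (chr13:41220163-41220412) was 79.6% G or C with none, and the Elovl4 window was 69.6% G or C with 2 GC boxes that overlap each other. The Elovl5 window was 55.6% G or C and held no GC box, 2 CCAAT boxes and 1 CACGTG. Over all 32851 mouse promoters the median was 52.4% G or C, 32.7% held a GC box, 33.9% a CCAAT box and 6.02% CACGTG. The photoreceptor homeobox core TAATCC, searched on both strands, was in 6.25% of all promoters and in none of the 10 windows of these genes.

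Level was expressed as CPM, a gene's UMIs relative to all UMIs of its class in a mouse. The classes were built from these same cells, so levels across classes are a description, without a test. Among the 5 classes tested, Elovl2, Elovl4, Acsl6 and Fabp12 were highest in photoreceptors. Elovl4 was highest in rods (538 ± 196 CPM, SD, n = 11 mice), followed by cones (384 ± 94.8 CPM), and rods exceeded cones in 9 of 11 mice. Cones exceeded amacrine cells (164 ± 39.7 CPM) in all 11 mice, and Müller glia came last at 65.4 ± 23.3 CPM. Rods held 59.3% of all Elovl4 UMIs.

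**Figure D1:**
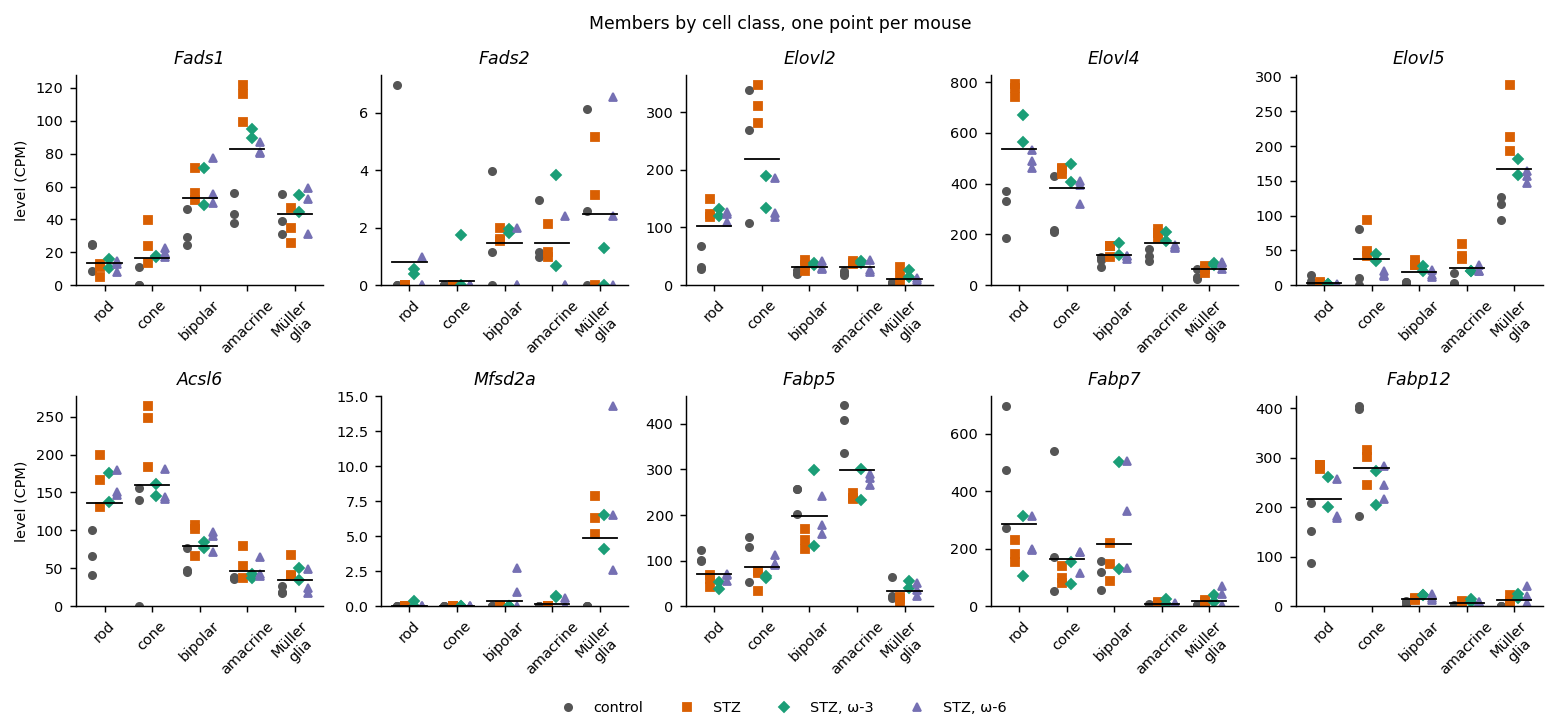
Level of each of the 10 genes (y axis, CPM) in 5 cell classes (x axis). Points are mice, shaped and coloured by group, and horizontal lines are means over 11 mice; Elovl2, Elovl4, Acsl6 and Fabp12 lie highest in rods and cones, and Elovl5 lies highest in Müller glia.

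Elovl2 was highest in cones (219 ± 92.8 CPM), above rods (103 ± 41.1 CPM) in 10 of 11 mice. Rods in turn exceeded amacrine cells (32.3 ± 9.67 CPM) in all 11 mice, while amacrine and bipolar cells (31.0 ± 8.39 CPM) did not differ beyond their spread. Fabp12, a member of the binding-protein family with few described roles, had the narrowest pattern of the photoreceptor genes. It reached 279 ± 73.1 CPM in cones and 216 ± 63.6 CPM in rods, with the next class, bipolar cells, at 14.9 ± 6.99 CPM. Rods held 70.5% of its UMIs and cones 22.6%. Acsl6 lay at 160 ± 68.3 CPM in cones and 136 ± 48.8 CPM in rods, and cones were above rods in only 7 of 11 mice, so these neighbours did not differ beyond their spread. It was lower but present in bipolar cells (79.0 ± 20.6 CPM). The 75 cells of the retinal pigment epithelium, too few to test, had a higher pooled level of 260.3 CPM from 27 UMIs.

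Among the 5 classes Elovl5 was highest in Müller glia and lowest in rods, with cones next after Müller glia. In Müller glia it lay at 167 ± 52.9 CPM, above cones (36.9 ± 29.8 CPM) in all 11 mice, and in rods at 2.81 ± 4.13 CPM. Müller glia were 1425 of the 20033 cells and held 46.2% of the Elovl5 UMIs. Astrocytes, with 47 cells over all mice, had a pooled level of 143 CPM, and the retinal pigment epithelium had 164 CPM from 17 UMIs.

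Of the desaturases, Fads1 was highest among the 5 classes in amacrine cells (82.5 ± 27.3 CPM), above bipolar cells (52.9 ± 16.5 CPM) in 10 of 11 mice. It was lowest in cones (16.4 ± 11.1 CPM) and rods (13.5 ± 6.36 CPM), which overlapped. The small astrocyte class had a higher pooled level, 233 CPM from 65 UMIs, as did the retinal pigment epithelium, 202.5 CPM from 21 UMIs. Fads2, the enzyme of the first desaturation, was nearly undetected. Its level over all cells ran from 0.574 to 1.78 CPM across the mice, and it passed the filter on low counts in no class and no comparison, so no difference in Fads2 could be tested.

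Fabp5 was highest in inner retinal neurons. It lay at 298 ± 70.3 CPM in amacrine cells, above bipolar cells (197 ± 58.5 CPM) in all 11 mice, and at 32.4 ± 18.3 CPM in Müller glia. The 96 retinal ganglion cells, too few per mouse to test, had a pooled level of 606 CPM. Of the other small classes, the 59 microglia had 271 CPM from 43 UMIs and the 113 endothelial cells 189 CPM from 129 UMIs. Within the amacrine class the clusters differed: the cluster without a leading amacrine marker had 415 CPM, and another of 128 cells had 40.7 CPM. Fabp7, a binding protein best known from radial glia and astrocytes, was found in rods (286 ± 169 CPM), bipolar cells (218 ± 159 CPM) and cones (165 ± 133 CPM). Rods exceeded bipolar cells in 6 of 11 mice, so no order between them could be given. Müller glia (19.96 ± 21.96 CPM) and amacrine cells (9.01 ± 5.85 CPM) were far lower. The 47 astrocytes, too few to test, had a pooled Fabp7 level of 222 CPM from 62 UMIs, near the pooled levels of rods (233.5 CPM) and bipolar cells (213.7 CPM).

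Fabp7 also varied widely between mice of a group. Over all cells the control mice had 149.6, 51.0 and 123 CPM, and the STZ mice 113, 67.5 and 113 CPM. The ω-3-fed mice had 215 and 72.1 CPM, and the ω-6-fed mice 147, 105 and 203 CPM. In each group the mouse labelled 2 was the lowest, although nothing in the labels ties mice of the same number together.

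Most Mfsd2a UMIs lay in endothelial cells. Of the 113 endothelial cells, 55 (48.7%) had at least 1 Mfsd2a UMI at a median of 4392 UMIs per cell, and this class held 175 of the 208 Mfsd2a UMIs found in all cells (84.1%). By comparison 14 of 1425 Müller glia (0.982%), 3 of 3287 amacrine cells and 1 of 10178 rods had one, at medians of 2082, 3053 and 1061 UMIs per cell. None of 1126 cones did, which allows a share of cells with a UMI of up to 0.266% and sets no limit on cells that express the gene. The endothelial cluster was led also by Rgs5, a pericyte marker. Its pooled Mfsd2a level was 169 CPM in control (95% Poisson interval 122 to 228, 42 UMIs), 182 CPM in STZ (111 to 280, 20 UMIs), 416 CPM on the ω-3 diet (291 to 576, 36 UMIs) and 325 CPM on the ω-6 diet (257 to 406, 77 UMIs). These intervals cover counting error only. With 2 to 32 endothelial cells per mouse no test was made, and ω-6 mouse 2 alone gave 65 of the 77 ω-6 UMIs from 21 cells.

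**Figure D2:**
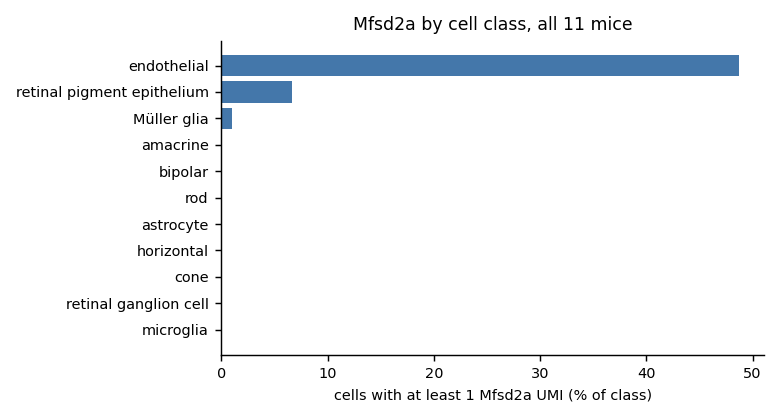
Share of cells with at least 1 Mfsd2a UMI (x axis, % of the class) in each cell class (y axis), all 11 mice together. Endothelial cells reach 48.7%, retinal pigment epithelium 6.67%, and every other class stays below 1%.

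The level of Mfsd2a in all cells ran from 1.38 to 11.9 CPM, and the highest value was that of ω-6 mouse 2, the diet-fed mouse with the most endothelial cells.

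The main question of the study was how the diets differ. The ω-6 diet was compared with the ω-3 diet by edgeR's quasi-likelihood test on UMIs summed per mouse and class, with the mouse as replicate and p adjusted over all genes of the class. No member was called at an adjusted p under 0.05 in any class or in all cells. Of the 50 combinations of member and class, 38 passed the filter on low counts. Of these, 0 were called by edgeR and 0 by DESeq2, and 3 had an unadjusted p under 0.05 in edgeR. Few genes of any kind were called: 0.0158% of genes tested in rods, and 0.0% in all cells and in each of the other 4 classes, where 283 (Müller glia) to 1298 (amacrine cells) genes had an unadjusted p under 0.05 and 1328 did in all cells.

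The estimates lay on both sides of 0, with 19 above and 19 below. The interval of the difference shows how much could have been missed. Elovl4 in rods stood at 565 and 670.4 CPM on the ω-3 diet and at 534, 489.7 and 459.7 CPM on the ω-6 diet. All 3 ω-6 mice were below both ω-3 mice. The log2 fold change, given here and below as the first group over the second, was -0.20 (SE 0.14, 95% interval -0.50 to 0.11), with an adjusted p of 0.62 by edgeR. Elovl2 in cones (189 and 134 CPM against 125, 118 and 186.5 CPM) overlapped, with a log2 fold change of -0.16 (95% interval -0.65 to 0.34). Acsl6 in cones gave 0.08 (-0.35 to 0.50) and Fabp12 in cones 0.10 (-0.32 to 0.52). For these photoreceptor genes in their leading class, a change of 2-fold lay outside the interval.

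The 3 combinations with an unadjusted p under 0.05 were in photoreceptors. Elovl5 in cones was at 45.5 and 34.9 CPM on the ω-3 diet and at 15.1, 19.8 and 12.9 CPM on the ω-6 diet. All ω-6 mice were below both ω-3 mice, on 47 and 29 UMIs in all. The log2 fold change was -1.25 (SE 0.40, 95% interval -2.10 to -0.40, adjusted p = 0.55 by edgeR). Fabp5 pointed the other way in both photoreceptor classes. In rods it was at 38.7 and 53.2 CPM against 54.6, 67.7 and 69.9 CPM (log2 fold change 0.59, SE 0.22, edgeR adjusted p = 0.39), and in cones at 67.4 and 61.1 CPM against 92.6, 112 and 90.05 CPM (0.66, SE 0.25, edgeR adjusted p = 0.60). The groups did not overlap in either class, but neither difference survived adjustment. Of the 38 combinations tested between the diets, 8 had groups without overlap, and 0 of these were called. Groups of 3 and 2 mice can separate by ordering alone, and the share over all genes was not computed, so separation is a description.

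**Figure D3:**
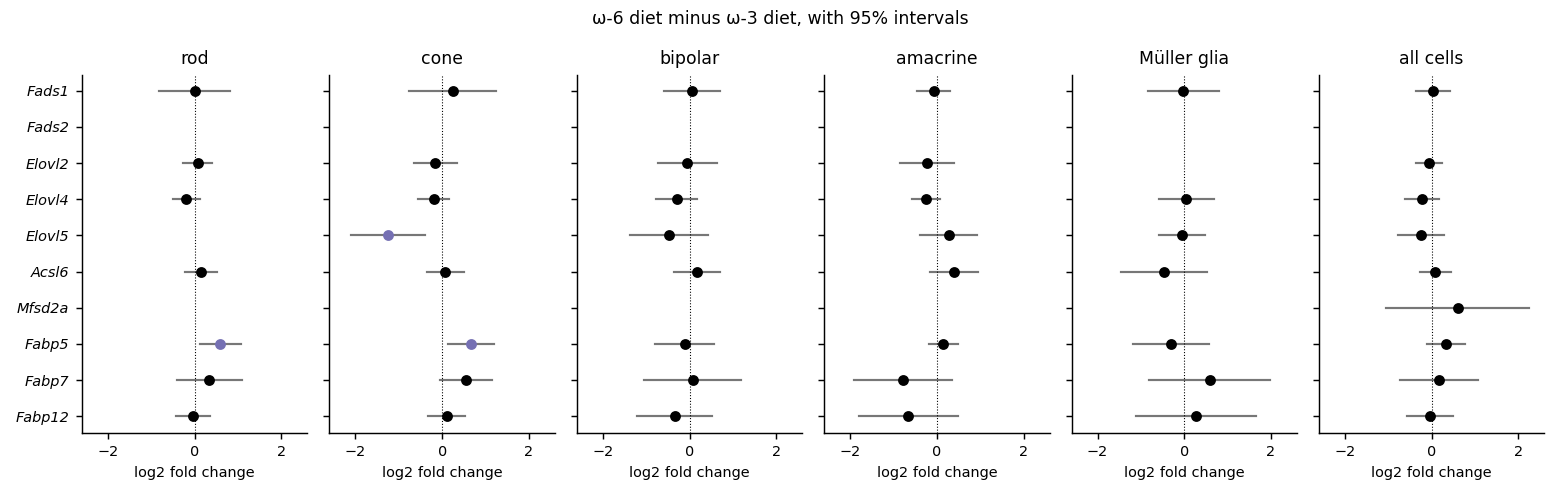
Log2 fold change of the ω-6 diet over the ω-3 diet (x axis) for each gene (y axis) in 5 cell classes and in all cells, with 95% intervals from edgeR. Purple points have an unadjusted p under 0.05 (Elovl5 and Fabp5 in cones, Fabp5 in rods); genes without a point did not pass the filter on low counts, and no difference was called.

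In the classes where the other members were highest, differences were small against the spread. Elovl5 in Müller glia was at 159 and 181 CPM on the ω-3 diet and at 147, 158 and 165 CPM on the ω-6 diet (log2 fold change -0.05, 95% interval -0.59 to 0.49). Fads1 in amacrine cells gave -0.07 (-0.45 to 0.31) and Fabp5 in amacrine cells 0.15 (-0.18 to 0.48). Fabp7 in rods gave 0.33 with a wide interval (-0.42 to 1.09), because the 2 ω-3 mice differed from each other (313 and 105.5 CPM) by more than the ω-6 mice did (197, 199.5 and 315 CPM). In all cells, 9 members were tested, and their log2 fold changes ran from -0.25 (Elovl5) to 0.60 (Mfsd2a). The Mfsd2a value had an interval from -1.04 to 2.25 and was -0.86 without ω-6 mouse 2. Fabp5 gave 0.34 (-0.10 to 0.78), Fabp7 0.17, Acsl6 0.09, Fads1 0.03, Fabp12 -0.03, Elovl2 -0.06 and Elovl4 -0.22.

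The rest of the pathway was read from 8 lists of 92 genes, 86 of them in the table. Over the 5 classes, 304 combinations of gene and class were tested between the diets, of which 0 were called by edgeR and 19 had an unadjusted p under 0.05. DESeq2 called 1. Their median log2 fold change was 0.01, as was that of all genes tested. By list the median ran from -0.10 (phospholipid incorporation) to 0.17 (activation to acyl-CoA).

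STZ mice were next compared with their PBS-treated littermates. Of the 50 combinations of member and class 28 passed the filter, and 12 of these were called by edgeR, 8 higher and 4 lower in STZ, and DESeq2 called 10. The share of all genes called was itself high: 48.1% in all cells, 45.3% in bipolar cells, 41.1% in rods, 38.8% in amacrine cells, 18.8% in cones and 10.8% in Müller glia. Against that background, the members called were 5 of 6 tested in rods, 4 of 6 in amacrine cells, 2 of 7 in bipolar cells, 1 of 3 in Müller glia and 0 of 6 in cones. Scaling moved these fold changes: by total UMIs instead of TMM, the all-gene median on the log2 scale lay at 0.16 (Müller glia) to 0.45 (bipolar cells) in place of 0.0008 to 0.10, and 17 combinations were called, 13 higher and 4 lower. No called member changed direction.

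In rods the elongases of the last steps and Acsl6 rose in STZ. Elovl2 was at 31.9, 27.9 and 68.5 CPM in control and at 119, 124 and 149 CPM in STZ, a log2 fold change of 1.21 (SE 0.31, edgeR adjusted p = 0.0038). Elovl4 was at 333, 185 and 373 CPM in control and at 743, 791 and 776.5 CPM in STZ, a log2 fold change of 1.06 (SE 0.24, edgeR adjusted p = 0.0018). Acsl6 was at 66.6, 41.9 and 101 CPM against 130.4, 167 and 199.7 CPM (0.88, SE 0.28, edgeR adjusted p = 0.018). For each of these genes the lowest STZ mouse was above the highest control mouse. Of the 28 combinations tested, 18 had groups without overlap, and 12 of these were called. The share over all genes was not computed, so separation is a description here and below. Acsl6 did not hold under every choice of rods: with classes by marker score its log2 fold change was 0.08 (adjusted p = 0.86 by edgeR), and with only the rod clusters led by a marker it was 0.62 (adjusted p = 0.087 by edgeR). Elovl2 gave 1.82 without control mouse 3.

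Fabp7 and Fabp5 fell in rods. Fabp7 was at 698, 272 and 474 CPM in control and at 232, 153 and 183 CPM in STZ, a log2 fold change of -1.64 (SE 0.28, edgeR adjusted p = 0.00014). Fabp5 was at 98.5, 101 and 124 CPM against 67.6, 41.3 and 60.1 CPM (-1.23, SE 0.27, edgeR adjusted p = 0.0014), and with classes by marker score it gave -0.48 (adjusted p = 0.34 by edgeR). The groups did not overlap for either gene. Fabp12 in rods was at 208.5, 87.2 and 151 CPM against 276, 284 and 285 CPM, which is 0.60 (SE 0.25) with an adjusted p of 0.062 by edgeR. It passed the threshold under 5 of the alternatives and turned to -0.12 with classes by marker score.

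Elovl5 rose in STZ in each class where it was called. In Müller glia, its leading class, it was at 93.0, 116 and 127 CPM in control and at 213, 289 and 192 CPM in STZ, a log2 fold change of 0.90 (SE 0.25, edgeR adjusted p = 0.035). This call was near its threshold and was lost in 7 alternatives, DESeq2 among them. In bipolar cells Elovl5 was at 4.63, 1.17 and 4.95 CPM against 28.9, 29.7 and 36.7 CPM, a log2 fold change of 2.67 (SE 0.46, edgeR adjusted p = 0.00039) on 10 control UMIs. In amacrine cells it was at 1.98, 17.5 and 3.42 CPM against 38.2, 41.5 and 58.6 CPM, a log2 fold change of 2.20 (SE 0.50, edgeR adjusted p = 0.0031), and 3.70 without control mouse 2. The difference between classes in the size of these changes was not tested.

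Fads1, which makes the last desaturation before arachidonic and eicosapentaenoic acid, rose in amacrine cells. It was at 43.6, 56.2 and 37.6 CPM in control and at 122, 117 and 99.3 CPM in STZ (log2 fold change 0.94, SE 0.20, edgeR adjusted p = 0.0024). Elovl4 in amacrine cells gave 0.46 (SE 0.16, edgeR adjusted p = 0.034) and was not called in 6 alternatives. Fabp5 fell in both inner retinal classes. In amacrine cells it was at 408, 335.5 and 440.2 CPM in control and at 248, 238 and 234 CPM in STZ (-1.06, SE 0.14, edgeR adjusted p = 4.6e-05). In bipolar cells it was at 258, 201.5 and 256 CPM against 144.5, 125 and 169.6 CPM (-1.11, SE 0.17, edgeR adjusted p = 0.00014). No STZ mouse reached a control mouse in either class.

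**Figure D4:**
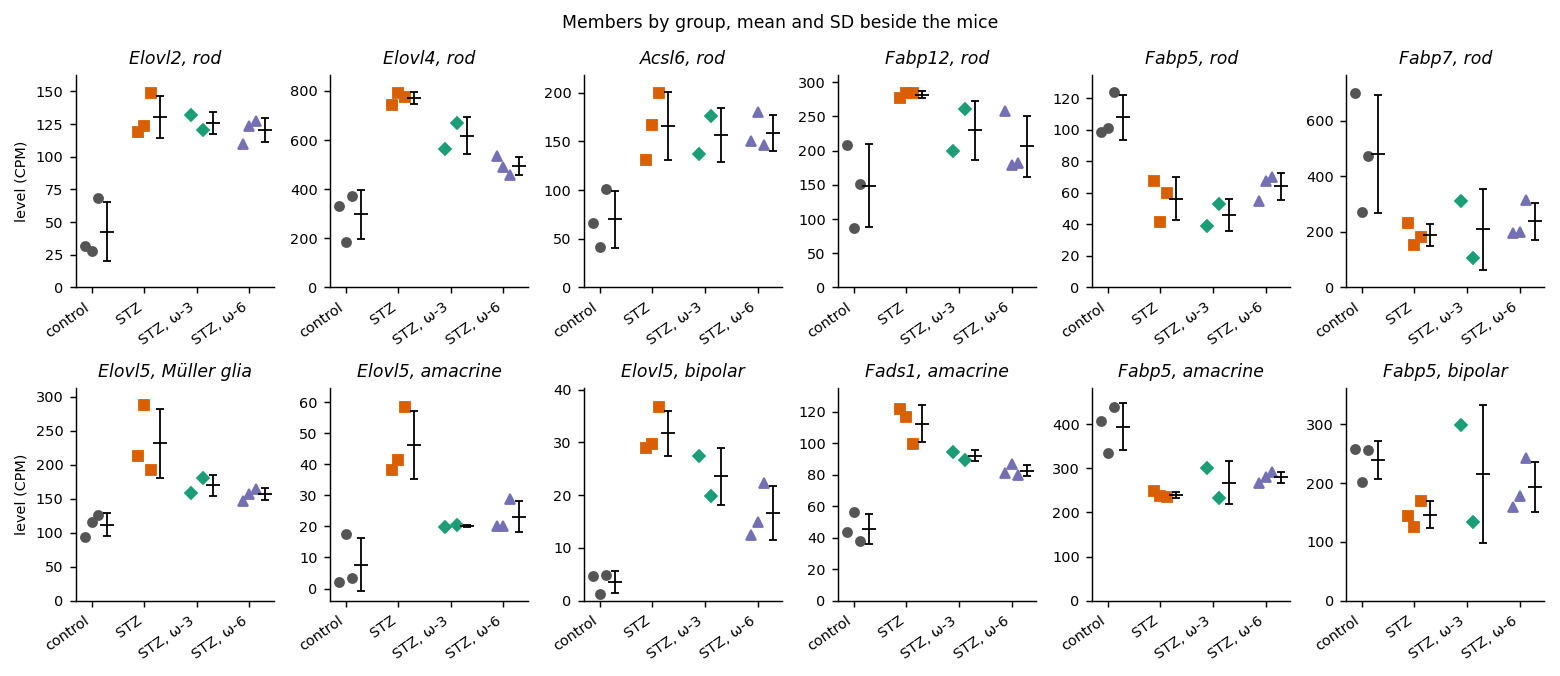
Level (y axis, CPM) of 12 combinations of gene and class in the 4 groups (x axis); points are mice, and the bar beside them is the mean with its SD. In rods the STZ mice lie above control for Elovl2, Elovl4, Acsl6 and Fabp12 and below it for Fabp5 and Fabp7.

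In cones no member was called between STZ and control, and 2 had an unadjusted p under 0.05, Fabp7 (-1.29, SE 0.48, edgeR adjusted p = 0.060, and -0.50 without control mouse 1 but -1.68 with adjusted p = 0.0047 without control mouse 2) and Fabp5 (-1.16, SE 0.51, edgeR adjusted p = 0.11). The control cone sums were thin, with 13 to 46 cells per mouse, so that 1 UMI was worth 10.8 to 27 CPM. Elovl2 in cones was at 108, 339 and 269.6 CPM in control and at 280.5, 310.3 and 348 CPM in STZ (0.16, SE 0.32), Acsl6 gave 0.89 (SE 0.47) and Fabp12 -0.44 (SE 0.29). None of these was called at this depth. With classes by marker score, Acsl6 (1.24, adjusted p = 0.019), Fabp5 (-1.26, adjusted p = 0.037) and Fabp7 (-2.40, adjusted p = 0.00045) were called in cones by edgeR. Acsl6 in Müller glia gave 1.04 (SE 0.45) with an adjusted p of 0.15 by edgeR.

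In all cells 6 of 9 tested members were called, where 48.1% of all genes tested were called. Fabp12 gave 1.62 (SE 0.28), Elovl2 1.42 (SE 0.20), Elovl4 1.21 (SE 0.17), Elovl5 1.00 (SE 0.18), Acsl6 0.89 (SE 0.19) and Fabp5 -1.23 (SE 0.12). Fads1 (0.28, SE 0.15), Fabp7 (-0.40, SE 0.32) and Mfsd2a (-1.11, SE 0.48) were not called. By edgeR, Fads1 was called with scaling by total UMIs (0.55, adjusted p = 0.011). Without control mouse 2, Fabp7 (-0.73, adjusted p = 0.014) and Mfsd2a (-1.44, adjusted p = 0.024) were called by edgeR, and without control mouse 1 they gave -0.10 and -0.57. A gene's level over all cells moves with the shares of the classes, and rods were a smaller share of control cells. Fewer cells of a class and less RNA per cell cannot be told apart in these sums.

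Of the 8 pathway lists, 71 of 224 tested combinations of gene and class were called between STZ and control, 51 higher and 20 lower. By class these were 23 of 51 in rods (against 41.1% of all genes tested there), 20 of 60 in amacrine cells (38.8%), 3 of 36 in Müller glia (10.8%), 23 of 53 in bipolar cells (45.3%) and 2 of 24 in cones (18.8%). With so many genes called at large, the counts by list below are descriptions and no result about the lists. Scaled by total UMIs, 87 were higher and 11 lower. The median log2 fold change was 0.36, beside 0.03 for all genes tested. Sensors and regulators of lipid genes had 11 of 38 combinations called, all higher, with a median of 0.60. Rxra, the partner of lipid-sensing nuclear receptors, gave 2.33 in rods (SE 0.53, edgeR adjusted p = 0.0016), where the control mice had 2.90, 3.49 and 12.6 CPM and the STZ mice 55.1, 47.7 and 37.0 CPM. Srebf1, which drives fatty acid synthesis genes, gave 1.15 in rods (SE 0.42, edgeR adjusted p = 0.033).

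Uptake and binding had 18 of 35 called, 12 higher and 6 lower (median 0.46). Adipor2, an adiponectin receptor, gave 2.28 in rods (SE 0.45), and Lrp8, a lipoprotein receptor, gave 1.70 in rods (SE 0.42) and 1.56 in amacrine cells (SE 0.16). Phospholipid incorporation had 9 of 24 called, 7 higher and 2 lower (median 0.35). Agpat3, which places DHA into phosphatidic acid, was at 168, 112 and 231 CPM in control rods and at 646, 837.5 and 703.5 CPM in STZ rods (1.76, SE 0.25, edgeR adjusted p = 1.7e-05). Lclat1 gave 2.31 in rods (SE 0.62), and Lpcat1, a lysophosphatidylcholine acyltransferase, gave -1.64 in amacrine cells (SE 0.21).

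Desaturation and elongation beyond the members had 8 of 35 called, 4 higher and 4 lower (median 0.25). Tecr, the reductase of the last elongation step, gave -1.26 in rods (SE 0.21) and Hsd17b12, the ketoacyl reductase, -1.95 in rods (SE 0.47), whereas Cyb5a, the electron donor of the desaturases, gave 1.98 in rods (SE 0.61). Lipogenic targets of SREBP1 had 9 of 25 called, 7 higher and 2 lower (median 0.59). Scd1, which makes monounsaturated fatty acids, gave 3.01 in amacrine cells (SE 0.63) and Me1 2.06 in rods (SE 0.39), while Acss2 gave -1.76 in rods (SE 0.41).

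Peroxisomal retroconversion, the last step to DHA, had 7 of 29 called, 4 higher and 3 lower (median 0.05). Activation to acyl-CoA had 4 of 22 called, 3 higher and 1 lower (median 0.28), with Slc27a4 at 1.84 in bipolar cells (SE 0.41). Release and eicosanoid synthesis had 5 of 16 called, 3 higher and 2 lower (median 0.13). Ptgs2, which makes prostaglandins and is itself an immediate-early gene, was called higher in amacrine cells (edgeR adjusted p = 0.00041), from 0, 0 and 1.14 CPM in control, a single UMI, to 11.7, 12.7 and 23.8 CPM in STZ. Fosb moved with it between the groups, and the part of that response in the difference was not tested.

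Both diet groups were also set against the STZ mice off these diets, whose feed the labels do not name. The labels give the diet-fed mice as littermates of one another and not of these mice, so that diet, litter and preparation cannot be told apart, and these comparisons share the STZ mice with the comparison to control. Of the 50 combinations 37 passed the filter, and 2 of these were called by edgeR, both lower on the diets and both in cones, and 11 had an unadjusted p under 0.05. DESeq2 called Elovl2 in cones and Elovl4 in rods, and not Elovl5 in cones (adjusted p = 0.0501). The share of all genes called was 3.26% in cones, 0.281% in rods, 0.264% in all cells, 0.0882% in Müller glia, 0.0361% in bipolar cells and 0.0221% in amacrine cells. In cones, 2 of 8 tested members were called.

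Elovl2 fell in cones, where it is highest. It was at 280.5, 310.3 and 348 CPM in STZ, at 189 and 134 CPM on the ω-3 diet and at 125, 118 and 186.5 CPM on the ω-6 diet. All 5 diet-fed mice were below all 3 STZ mice, with a log2 fold change of -1.03 (SE 0.19, 95% interval -1.42 to -0.64, edgeR adjusted p = 0.0028). The call held under every alternative run. Elovl5 in cones was at 49.8, 42.3 and 94.2 CPM in STZ, 45.5 and 34.9 CPM on the ω-3 diet and 15.1, 19.8 and 12.9 CPM on the ω-6 diet. The ω-3 mice overlapped the STZ mice, and the ω-6 mice were below both groups. Its log2 fold change was -1.27 (SE 0.35, edgeR adjusted p = 0.044), which was above the threshold in 13 of 18 alternatives, and -0.86 without STZ mouse 3 (adjusted p = 0.35 by edgeR). The control cones, also without a diet, had 81.0, 0 and 10.8 CPM of Elovl5.

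**Figure D5:**
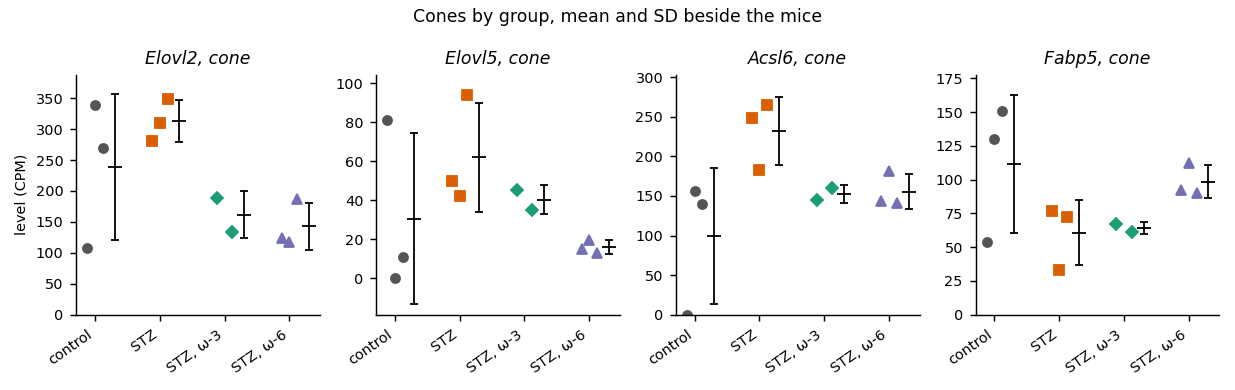
Level in cones (y axis, CPM) of Elovl2, Elovl5, Acsl6 and Fabp5 in the 4 groups (x axis); points are mice, and the bar beside them is the mean with its SD. Elovl2 lies at 280.5 to 348 CPM in STZ and at 118 to 189 CPM in the 5 diet-fed mice, and Elovl5 is lower in the 3 ω-6 mice than in any STZ or ω-3 mouse.

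No other member was called against the STZ mice. Elovl5 in amacrine cells was at 38.2, 41.5 and 58.6 CPM in STZ and at 19.9, 20.4, 20.3, 20.2 and 28.8 CPM in the diet-fed mice, which did not overlap (-1.05, SE 0.23, unadjusted p = 0.00024 and adjusted p = 0.12 by edgeR), and it was called without the filter on low counts (adjusted p = 0.011 by edgeR). In Müller glia it gave -0.43 (SE 0.20) and in all cells -0.63 (SE 0.17, edgeR adjusted p = 0.13). Elovl4 in rods gave -0.42 (SE 0.11, edgeR adjusted p = 0.12), with all 5 diet-fed mice (459.7 to 670.4 CPM) below all 3 STZ mice (743 to 791 CPM) (adjusted p = 0.019 by DESeq2). Fabp12 in rods gave -0.32 (SE 0.14), Acsl6 in cones -0.57 (SE 0.19) and Fads1 in amacrine cells -0.31 (SE 0.14).

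Fabp5 and Fabp7 had estimates above 0 in Müller glia, bipolar cells, amacrine cells and cones. In rods the estimate was above 0 for Fabp7 and just below it for Fabp5. Fabp12 was above 0 in bipolar and amacrine cells, below it in rods and cones, and not tested in Müller glia. Fabp5 gave 1.58 in Müller glia (SE 0.47, edgeR adjusted p = 0.35), where the STZ mice had 9.41, 15.5 and 19.6 CPM and the diet-fed mice 22.9 to 54.8 CPM, and 0.55 in bipolar cells (SE 0.24). Fabp7 gave 1.13 in bipolar cells (SE 0.42, edgeR adjusted p = 0.39). Its ω-3 mice stood at 502 and 128.5 CPM and its ω-6 mice at 332, 135 and 506 CPM, against 148, 87.2 and 220.0 CPM in STZ, and the groups overlapped. It was called by edgeR in 3 alternatives: without the filter on low counts (adjusted p = 5.3e-07), with the replicate block (1.26, adjusted p = 0.0068) and without ω-3 mouse 2 (1.47, adjusted p = 0.035). Leaving out a mouse gave 0.47 to 1.49. Fabp7 in rods gave 0.26 (SE 0.27), Fabp5 in amacrine cells 0.24 (SE 0.12) and Fabp12 in cones -0.21 (SE 0.17). In all cells the other members ran from -0.20 (Fads1) to 0.76 (Mfsd2a), with Fabp7 at 0.66 and Fabp5 at 0.24, and none was called. The Mfsd2a value was 0.0022 without ω-6 mouse 2.

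Of the pathway lists, 5 of 302 combinations were called on the diets, all in cones. These were 5 of the 56 tested in cones, where 3.26% of all genes tested were called. That share was 0.0221% (amacrine cells) to 0.281% (rods) in the other classes. Elovl6, the elongase of saturated and monounsaturated chains, gave -1.12 (SE 0.22, edgeR adjusted p = 0.0062). It was at 149, 179 and 156 CPM in STZ and at 62.3, 89.0, 71.8, 54.2 and 87.9 CPM in the diet-fed mice, which did not overlap. Acsl3 gave -0.74 (SE 0.20) and Ptges3 -0.81 (SE 0.21). The regulators Srebf1 and Ppard moved the other way. Srebf1 was at 31.7, 47.0 and 25.4 CPM in STZ and at 75.6 to 98.6 CPM on the diets (1.38, SE 0.30, edgeR adjusted p = 0.011), and Ppard gave 1.16 (SE 0.27, edgeR adjusted p = 0.021). The median over the 302 combinations was -0.01, beside 0.01 for all genes tested.

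The genes whose levels ran most like each member were found by Pearson's r of log2 CPM over 67 sums of mouse and class, among 11805 genes. The sums share libraries, and classes differ in depth, so these are descriptions. Fabp12 ran most like Aipl1 (r = 0.94), Rtbdn (0.91) and Cplx4 (0.91), genes known from photoreceptors. Elovl2 ran most like A930003A15Rik (0.89), Arl6 (0.87) and Osbp2 (0.86), Elovl4 like Hsp90aa1 (0.89), Vldlr (0.89) and Grina (0.87), and Acsl6 like Wdr35 (0.84), Ppa2 (0.83) and Gnb5 (0.83). Mfsd2a ran most like Adgrl4 (0.81), an endothelial receptor, Nid2 (0.81) and AU021092 (0.80). Fabp7 ran most like Gm37583 (0.81), Cplx4 (0.80) and Stx3 (0.79), and Fabp5 like Snrpn (0.78), Uchl1 (0.78) and Prmt1 (0.77). Elovl5 was nearest to Dusp6 (0.77), Laptm4a (0.76) and Dag1 (0.75), and Fads1 to Mgat4b (0.82), Snn (0.78) and Rab4b (0.78). For Fads2, with few UMIs, the nearest were Gfap (0.64), H19 (0.58) and Lrrc75b (0.55).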

How the data were processed

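Retinas of 11 mice in 4 groups were profiled by inDrop. The authors deposited raw UMI counts per gene and cell, after finding barcodes with umis in bcbio-nextgen, leaving out barcodes with few reads and assigning reads with Rapmap to GENCODE transcripts (builds GRCm38.p6 and mm10 in the submitters' processing notes). Strand handling was not given in the sources used here.

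Cells with more than 300 genes were kept (20033 of 20067) and clustered with Seurat 5.3.0 at resolution 0.2 on 75 principal components. Clusters were named from fixed markers. Scrublet marked 72 cells (0.359%), too few to have worked, so no doublets were removed. UMIs were summed per mouse and class where each mouse had at least 10 cells, and tested with edgeR 4.0.16 (quasi-likelihood, TMM, low-count filter, Benjamini-Hochberg over all genes of a class, threshold 0.05). DESeq2 1.42.0 was an alternative. Standard errors and intervals come from the edgeR F statistic. Labels do not state how mice relate beyond litters, so p-values measure the spread between these mice.

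The members and gene lists were chosen with earlier results of these data known. All 10 members were described, with fold changes given in the leading class, in all cells and wherever called or with an unadjusted p under 0.05. A few further values are given for completeness and were chosen after their values were seen. Pathway genes were named only where called. Some called pathway genes are not reported here. The fit was tested on simulated data: of genes changed 4-fold between the diets, it found 85% in rods (12664 genes) and 66% in Müller glia (7945 genes), and of genes changed 2-fold, 40% and 14%. Of the simulated calls between the diets, 9.42% were false in rods and 2.44% in Müller glia. Between STZ and control this share ran from 1.06% in cones to 10.3% in all cells, so it could exceed the threshold of 0.05. Alternatives covered scaling, filter, tool, fit of all groups, replicate block, leaving out a mouse, and cell and class choice. Scaling by total UMIs and clusters led by a marker were added after seeing the data.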

Additional observations from a re-analysis of the deposited data

How the results depend on the processing

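Of 1103 recomputed log2 fold changes, over 71 reported ones, 1021 kept direction and side of the threshold, 31 fell below it, 17 passed it and 34 turned. The 20 called ones turned in none of their 312 alternatives, and 31 of those lost the call, in Elovl5 in cones (diets against STZ, 13), Elovl5 in Müller glia (7), Elovl4 in amacrine cells (6), Acsl6 in rods (4) and Fabp5 in rods (1). The cause of these changes was not tested. No alternative called a member between the diets. The pathway lists, at 0 there, had 1 call without the low-count filter and 1 with DESeq2. Diets against STZ, the 2 called members became 1 with all 4 groups in 1 fit, 1 with cells of more than 500 genes, 1 with classes by marker score, 1 to 2 with a mouse left out and 3 without the low-count filter, and the 5 pathway calls became 9 without the filter and 2 to 5 with a mouse left out.

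Only uncalled fold changes turned. Between the diets in all cells, Fads1 gave -0.053 by total UMIs. Against control, Fabp12 gave -0.12 in rods and 0.094 in cones with classes by marker score. Diets against STZ in all cells, Acsl6 gave 0.00555 with cells of more than 500 genes and 0.00416 without the highest doublet scores, and Fabp12 gave -0.019 by total UMIs.

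With a mouse left out, the values between the diets in all cells ran from -0.14 to 0.22 for Fads1, -0.43 to 0.024 for Elovl4, -0.46 to 0.00654 for Elovl5, -0.12 to 0.33 for Acsl6, -0.86 to 1.052 for Mfsd2a, -0.40 to 1.135 for Fabp7 and -0.29 to 0.28 for Fabp12. In cones they ran from -0.37 to 0.11 for Elovl2, -0.066 to 0.16 for Acsl6 and -0.10 to 0.34 for Fabp12, in Müller glia from -0.17 to 0.038 for Elovl5, in amacrine cells from -0.023 to 0.35 for Fabp5 and in rods from -0.24 to 1.26 for Fabp7. Against control, Elovl2 in cones ran from -0.11 to 0.43. Diets against STZ, Acsl6 ran from -0.14 to 0.16 and Fabp12 from -0.10 to 0.18 in all cells, and Fabp7 from -0.23 to 0.54 in rods.

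Titles number the mice alike in each group, but deviations of same-numbered mice correlated at only -0.06 to 0.15 between STZ and control, and at 0.05 to 0.27 between the diets, so no pairing was established. With the replicate block, 0 member combinations were called between the diets, 13 against control and 2 for diets against STZ. The members behind that 2 changed: Elovl5 in cones lost its call (adjusted p = 0.11) and Fabp7 in bipolar cells gained one (1.26, adjusted p = 0.0068, both by edgeR). With this block Fads1 gave -0.036 and Fabp12 0.053 between the diets in all cells, and Acsl6 0.021 for diets against STZ. Control cones, with 13 to 46 cells a mouse, and endothelial cells, with 2 to 32, limited what could be detected.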
